A study of Mus musculus with 721 samples.

Results

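Cells of the visceral endoderm (VE), the epithelium that wraps the epiblast, were set against epiblast cells of the same E6.5 mouse embryos. The members were chosen by measured values. Each E6.5 cell received the mean log2(CPM + 1) of 6 VE genes (Apoa1, Ttr, Cubn, Dab2, Amn and Apoc2) and the mean of 3 epiblast genes (Pou5f1, Tdgf1 and Dnmt3b), where CPM is counts per 1000000 counts. A cell whose VE mean was the higher one was placed on the VE side, and the other cells with T, a primitive streak gene, below 10 CPM were placed on the epiblast side. The T limit was set on the epiblast side only, and 5 of the 48 VE cells compared had T at 10 CPM or more. Of the 721 cells in the series, 250 came from 13 embryos at E6.5, of which the rule put 53 on the VE side, 53 that reached the T limit were not compared, and the others were on the epiblast side. Embryos with at least 3 cells on both sides were compared, which left 48 VE cells and 81.9% of the epiblast-side cells, together 23% of the series, from 10 embryos with 3 to 10 VE and 3 to 43 epiblast cells each.

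The study profiled single cells of wild-type C57Bl/6Babr embryos by G&T-seq with Smart-seq2 chemistry from E3.5 to E6.5, without any treatment. The E6.5 group held cells titled E6.5 and cells titled E6.75, and 4 cells on each side were labelled as double. Of the 10 embryos compared, 7 carried the name of a plate (P1, P2 or P3) and 3 did not (E6.75 embryo 1, E6.75 embryo 2 and an embryo 1 titled E6.5 without a plate, called unplated embryo 1 here). Cells titled E6.5 without a plate carry embryo numbers that plate P1 also uses, so they may come from the same embryos. They were counted as separate embryos, and an alternative merged them. The study removed extra-embryonic tissue and dissociated the embryonic part of early streak embryos, so the VE cells here are those that stayed with it, and no label names them as VE.

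The VE descends from the primitive endoderm of the blastocyst. It takes up maternal nutrients through apical receptors and lysosomes, secretes apolipoproteins and serum proteins much as the later yolk sac and fetal liver do, and its anterior part secretes Nodal and Wnt antagonists that pattern the epiblast beneath it. The epiblast is the pluripotent epithelium that gives rise to the embryo proper.

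The genes of the rule are described and not tested. In the sums of counts per embryo and class, Apoa1, the main protein of high-density lipoprotein, lay at 753 to 6693 CPM (median 3556) in VE and at 61.4 to 732 CPM (median 238.9) in epiblast. Ttr, the thyroid hormone carrier transthyretin, lay at 928 to 7680 CPM (median 2735) and at 99.6 to 801 CPM (median 252.7). Pou5f1, the pluripotency factor Oct4, lay at 25.3 to 361 CPM (median 90.3) in VE and at 239.5 to 1235 CPM (median 428) in epiblast. The lowest VE value of Apoa1 and Ttr was above the highest epiblast value, whereas the Pou5f1 values of the classes overlapped. Just inside the threshold, the 3 VE-side cells nearest to it had a mean difference of 0.08, 0.21 and 0.47 between VE and epiblast genes, and the 3 nearest epiblast-side cells lay at −0.20, −0.14 and −0.12.

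The VE label was checked on genes outside the rule. In 9 of the 10 embryos the VE sum of Gata4, an endoderm transcription factor, was above every epiblast sum. Several genes of P1 embryo 3, Gata4 among them, went against the label. The 3 cells that the rule put on its VE side lay at 0.08 to 0.63 on the selection measure. In their sum Gata6, a relative of Gata4, was at 0 and Gata4 at 0.71 CPM, while Utf1 and Sox2, both epiblast factors, were at 336 and 192.2 CPM. Other genes outside the rule went with the label in this embryo, with Afp at 378 CPM against 136.6 in its epiblast sum and Col4a2 at 73.8 against 16.1 CPM. Apoe, Ctsl and Krt8 were lower on its VE side. The VE sum of P3 embryo 9 also went against the label in part. Its Gata4, at 19.04 CPM, was little above the highest epiblast sum of 17.1 CPM, Gata6 was at 1.06 CPM and Foxa2 at 0. Its Sox2, at 255.6 CPM, was above every epiblast sum, and Pou3f1 was higher on the VE side (272.2 CPM against 181.97 in its own epiblast sum). The TMM scaling factor of this VE sum was 0.56, against 0.92 to 1.17 for the others, and a low factor raises CPM. Without the factors its Gata4 was not above every epiblast sum and its Pou3f1 was not higher on the VE side. Dnmt3b, a gene of the rule and so no check, was at 2491 against 1961 CPM. Without the factors Dnmt3b lay at 282 to 1395 CPM in the VE sums and 1588 to 2928 CPM in the epiblast sums. Other genes of this embryo went with the label, with Afp at 327 CPM against 84.4 in its epiblast sum, Apob at 848.9 against 177.7 CPM, Utf1 at 74.7 against 224.3 CPM and Nanog at 20.8 against 164.8 CPM. Counts of calls and shares of counts are given below with and without these embryos. Since the embryos were singled out on genes of these kinds, calls gained without them are no independent result. Of the VE markers outside the rule, Afp reached 10 CPM in 45 of the 48 VE cells, Apob in 46, Apoa4 in 41, Foxa2 in 30, Hnf4a in 28, Gata6 in 27 and Sox17 in 25. Of the epiblast cells compared, 70 reached the same level for Afp, 78 for Apob, 7 for Gata6 and 10 for Sox17.

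**Figure D1:**
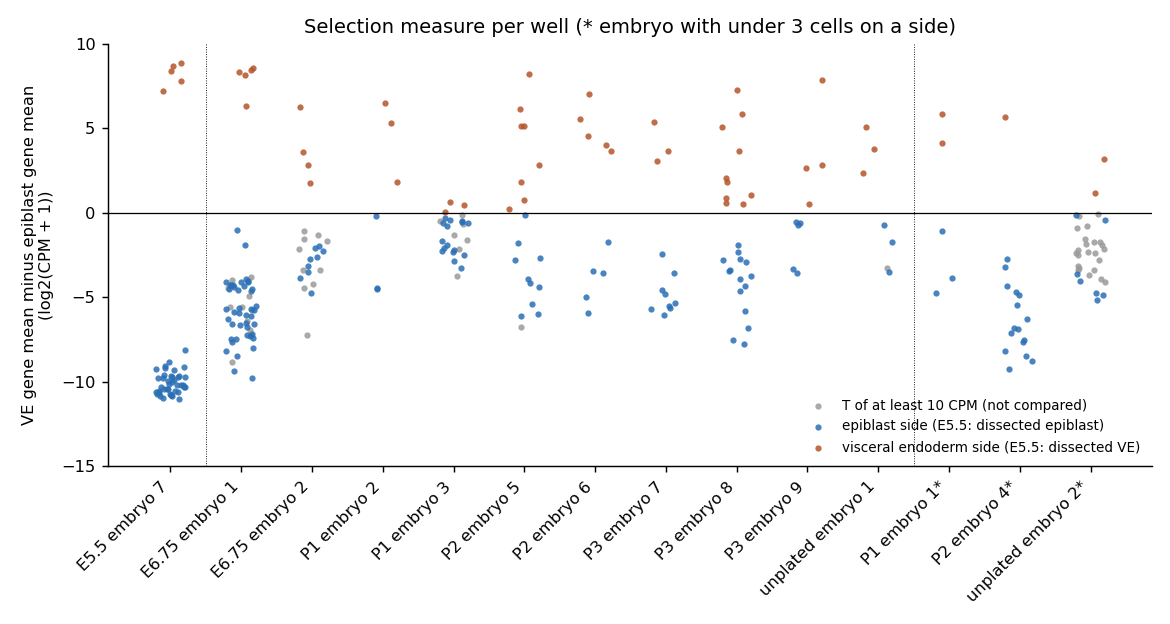
The y axis gives the mean log2(CPM + 1) of the 6 VE genes minus that of the 3 epiblast genes, with 1 point per well in E5.5 embryo 7 (wells labelled by dissection) and in the 13 E6.5 embryos. The E5.5 wells fall into separate groups at 7.20 to 8.89 and −11.0 to −8.14, while E6.5 wells run without a gap across 0 and the VE-side cells of P1 embryo 3 lie at 0.08 to 0.63.

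Some transcripts of the VE were read in most epiblast wells at E6.5 and others in a minority. Apoa1 reached 10 CPM in 86.1% of the epiblast-side wells, and in 16 wells labelled single at E5.5 (8.21%). Apob, the scaffold of very-low-density lipoprotein, reached it in 92 wells (63.9%) at E6.5 and in 5 (2.56%) at E5.5, and Ttr in 86.8% of wells against 10 wells (5.13%). Apom reached it in 68.8% of wells at E6.5 and 6.15% at E5.5, and Afp in 59.7% and 2.56%. The shares were lower for Rbp4 (34.03% and 3.59%), Apoa4 (30.6% and 2.56%) and Trf (23.6% and 14.36%). For the transcription factor Gata6 the shares were 4.86% at E6.5 and 1.03% at E5.5. The fold changes below are measured over these levels in the epiblast class, whose part in them was not tested.

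Counts per cell were higher in VE, with a mean of 1098760 ± 590778 (SD, n = 10 embryos) against 764220 ± 295834 in epiblast. VE was higher in 9 of 10 embryos (exact two-sided sign-flip permutation test, p = 0.00391). With embryos titled E6.5 without a plate merged into P1, VE was higher in 8 of 10 by a mean of 227729 counts (same exact test, p = 0.156). The mean difference was 376831 counts without P1 embryo 3 (9 of 9 embryos, exact p = 0.00391) and 301087 without P3 embryo 9 (8 of 9, exact p = 0.00781). The mean number of detected genes was 6612 ± 1175 in VE and 6489 ± 1218 in epiblast (higher in 7 of 10 embryos, p = 0.219, same exact test). With each cell thinned to 200000 counts it was 5989 and 5981 (p = 0.945, same exact test), which left out 1 VE and 4 epiblast cells with fewer counts. The sums compared held 1430165 to 9496422 counts for VE and 1476466 to 24948183 for epiblast. Of the markers of other cell types, those of the primitive streak had the highest sums. Over 12 of them besides T, VE lay at 67.3 to 2624 CPM (median 876) and epiblast at 65.3 to 453 CPM (median 228.4), with Cdx1 at 0 in VE. The highest VE medians were those of Lhx1 (180.1 CPM), Eomes (164.5 CPM) and Mixl1 (128.8 CPM), Lhx1 being also a gene of the anterior VE. T itself lay at 0 to 40.7 CPM (median 0.23) in the VE sums and at 0 to 0.72 CPM in the epiblast sums. Summed over 13 trophoblast markers, VE lay at 13.8 to 214.7 CPM (median 82.6) and epiblast at 2.61 to 211.8 CPM (median 42.4), with Gcm1 at 0 in both. The 12 blood and decidua markers summed to a median of 20.3 CPM in VE and 27.7 CPM in epiblast, with the embryonic globins Hba-x and Hbb-y at 0 in both. An exception was the VE sum of P2 embryo 6, with the adult globins Hba-a1 at 806 CPM and Hbb-b1 at 718 CPM, genes that have near-identical copies. Over 10 parietal endoderm markers VE lay at 259.6 to 1292 CPM (median 449) and epiblast at 190.4 to 308.5 CPM (median 226.6), and the part of parietal endoderm and streak cells in the results was not tested.

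Of the 9139 genes tested besides the genes of the rule, 2.36% were higher in VE and 0.93% (85 genes) were lower, where a call needed a fold change above 2-fold in size and an adjusted p no greater than 0.05. Adjusted p values here are those of edgeR's quasi-likelihood test with the embryo as a block and Benjamini-Hochberg adjustment. The median log2 fold change of all genes tested was −0.15. In every one of the 10 embryos, 91 of the higher genes and 33 of the 85 lower genes moved in the same direction. The 10 VE sums did not overlap the 10 epiblast sums for 20 tested genes with VE higher (0.219%) and 5 with VE lower (0.0547%). Without P1 embryo 3, 332 genes (3.62%) were higher and 1.49% lower. Without P3 embryo 9 the shares were 2.69% and 1.03% (97 genes), and without both, an alternative chosen after seeing the data, 3.86% (366 genes) and 1.79%. A further alternative, likewise chosen after seeing the data, started from all 10 embryos and left out VE cells at 10 CPM of T or more. In it 7 embryos, P3 embryo 9 among them, kept at least 3 cells on each side. Of the genes tested, 1.73% were higher and 0.349% (33 genes) lower. The shares were 1.48% and 0.325% (29 genes) without E6.75 embryo 1, and 1.503% and 0.414% (38 genes) without E6.75 embryo 2. The lower count also fell, to 44 without P1 embryo 2, 42 without P2 embryo 5, 46 without P2 embryo 6, 48 without P3 embryo 7 and 40 without unplated embryo 1. Since the cells were sorted on 10 genes, any gene whose transcripts went with those genes could differ through the sorting, and the tests hold for cells sorted in this way.

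**Figure D2:**
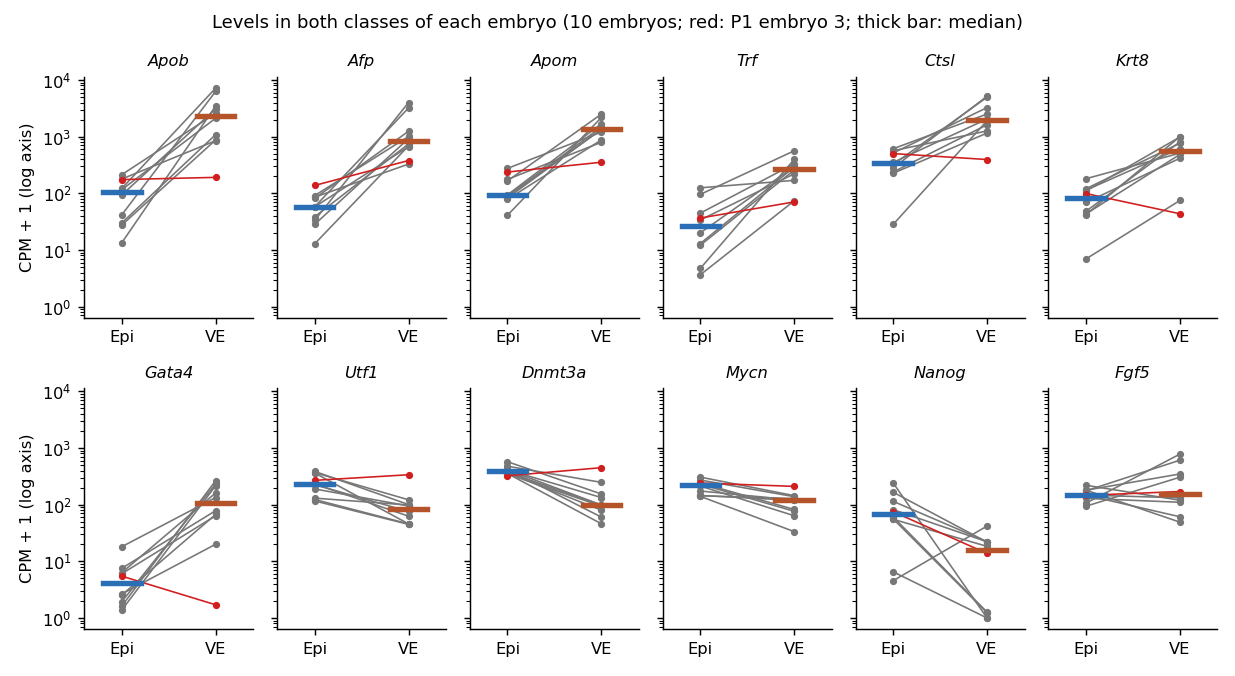
Each line joins the epiblast sum (Epi, left) and the VE sum (right) of an embryo for 12 genes, as CPM + 1 on a log axis, with thick bars at the medians and P1 embryo 3 in red. Apob to Gata4 rise in all or nearly all embryos, with Gata4, Ctsl and Krt8 falling in P1 embryo 3, Utf1 and Dnmt3a fall in all embryos but P1 embryo 3, and the Fgf5 medians are 146.3 CPM in epiblast and 150.3 CPM in VE.

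Promoters of 4 of these genes are shown because the genes stand for the secreted proteins (Afp and Apoa4), the lysosome (Ctsz) and the epiblast (Utf1). Each is the 250 bases before the RefSeq start in build GRCm38.p6, and capitals mark matches, on either strand, to the core letters AGATAA of the Gata4 family, CAAAGT of the HNF4 family, GTTAAT of the HNF1 family or ATGCAAAT of octamer factors.
Afp, chr5:90490464-90490713, plus strand: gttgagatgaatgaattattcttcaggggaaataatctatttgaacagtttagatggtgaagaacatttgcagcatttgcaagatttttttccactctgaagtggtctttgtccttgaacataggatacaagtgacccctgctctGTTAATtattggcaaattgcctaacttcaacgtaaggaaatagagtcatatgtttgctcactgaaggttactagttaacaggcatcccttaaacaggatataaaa
Apoa4, chr9:46240594-46240843, plus strand: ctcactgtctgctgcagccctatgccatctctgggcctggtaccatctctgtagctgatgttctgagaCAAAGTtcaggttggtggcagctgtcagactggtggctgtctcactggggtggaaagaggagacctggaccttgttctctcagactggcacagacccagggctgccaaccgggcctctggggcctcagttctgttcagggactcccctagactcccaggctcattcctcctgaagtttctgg
Ctsz, chr2:174439040-174439289, minus strand: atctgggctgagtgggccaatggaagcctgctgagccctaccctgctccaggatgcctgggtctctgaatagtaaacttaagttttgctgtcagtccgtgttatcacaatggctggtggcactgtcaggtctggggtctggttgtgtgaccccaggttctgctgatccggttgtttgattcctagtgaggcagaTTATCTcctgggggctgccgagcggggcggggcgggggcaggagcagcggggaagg
Utf1, chr7:139943606-139943855, plus strand: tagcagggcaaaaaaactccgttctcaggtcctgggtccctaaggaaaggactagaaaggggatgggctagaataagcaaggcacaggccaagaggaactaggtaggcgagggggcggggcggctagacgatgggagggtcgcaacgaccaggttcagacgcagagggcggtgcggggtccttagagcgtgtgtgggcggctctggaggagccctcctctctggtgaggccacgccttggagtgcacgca
Afp held the HNF1 letters, Apoa4 the HNF4 letters, and Ctsz the reverse of the GATA letters, 56 bases before the start, and Utf1 held none of the letters in this window. The VE promoters shown are not typical of their groups. Apoe held the HNF1 letters before 1 of its starts, while Apob, Apom, Mttp, Rbp4, Ctsl and Lgmn held none of the letters.

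Over all genes with a promoter in the table, the GATA letters were in 16 of the genes higher in VE (10.1%), 2 of 60 lower genes (3.33%) and 413 of 6421 tested genes (6.43%). The HNF1 letters were in 8.86%, 6.67% and 4.49% and the HNF4 letters in 12%, 10% and 12% of the same sets. The octamer letters were in 3 of the higher genes (1.90%), 2 of the 60 lower genes (3.33%) and 1.45% of tested genes. The shares among all 27025 genes of the table were 11.4% for GATA, 7.49% for HNF1, 14.1% for HNF4 and 1.81% for the octamer. These are matches of letters only, given without a test.

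The counts of the gene lists below are to be read beside the 2.36% of all tested genes that were higher and the 0.93% that were lower. Secreted lipid carriers gave some of the largest rises. Of 20 genes of apolipoproteins and lipoprotein assembly, 2 belong to the rule, 8 were under the filter on low counts, and 7 of the 10 tested were higher with none lower (median log2 fold change 3.28 against −0.15 for all genes tested). Apob (chr12:7977648-8016835, plus strand) lay at 190.1 to 7201 CPM (median 2352) in VE and at 12.4 to 212.4 CPM (median 103.6) in epiblast, higher in 10 of 10 embryos (log2 fold change 4.77 ± 0.67 SE, adjusted p = 0.00114). Its VE values were above every epiblast value in 9 embryos, the exception being P1 embryo 3. Apom, a carrier of sphingosine-1-phosphate, lay at 352.5 to 2501 CPM (median 1340) in VE and at 40.1 to 274 CPM (median 90.6) in epiblast, without overlap (log2 fold change 3.47 ± 0.41, adjusted p = 0.000465). Apoe, the ligand of remnant receptors, lay at 582 to 6908 CPM (median 4647) in VE against 204.2 to 916 CPM (median 414) in epiblast (log2 fold change 3.26 ± 0.39, adjusted p = 0.000465). It was higher in 9 of 10 embryos, P1 embryo 3 being the other. Apoa4 rose by 4.54 ± 0.81, Mttp, which loads lipid onto Apob, by 3.30 ± 0.65, Apoc1 by 2.58 ± 0.41 and Soat2, which esterifies cholesterol, by 4.90 ± 1.01 on the log2 scale. Apoa2 did not pass, at medians of 19.6 CPM in VE and 4.04 CPM in epiblast (adjusted p = 0.817).

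Without the genes of the rule, these genes took 1.01% ± 0.55 of the counts in VE and 0.124% ± 0.037 in epiblast (SD, n = 10 embryos, higher in 9 of 10, exact sign-flip test p = 0.00391). Leaving out P1 embryo 3 gave 1.11% and 0.119% (higher in 9 of 9, exact p = 0.00391, the smallest that 9 embryos allow), and leaving out P3 embryo 9 gave 1.06% and 0.123%. Without both embryos 8 of 11 tested genes of the list were higher. In P1 embryo 3 itself the VE share of 0.151%, the lowest of the 10, was below the epiblast share.

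Serum proteins rose with them. Of 25 listed genes, 17 were under the filter, 1 belongs to the rule, and 6 of the 7 tested were higher (median log2 fold change 4.25). Afp (chr5:90490737-90508907, plus strand), the fetal albumin homologue, lay at 327 to 3998 CPM (median 831) in VE and at 11.8 to 136.6 CPM (median 56.8) in epiblast, without overlap (log2 fold change 4.25 ± 0.51, adjusted p = 0.000465). The iron carrier transferrin, Trf, lay at 69.5 to 561 CPM (median 273) in VE and at 2.65 to 124.1 CPM (median 25.9) in epiblast and rose in 10 of 10 embryos (log2 fold change 3.40 ± 0.56, adjusted p = 0.00300). Rbp4, the plasma carrier of retinol, rose by 3.78 ± 0.75, F5, coagulation factor V, by 4.66 ± 0.86 and Spp2 by 6.82 ± 1.32 on the log2 scale, and the sixth, Ctsh, is a protease described with the lysosome. Prothrombin, F2, was too low to be tested, with VE sums of 0 to 26.9 CPM. The share of counts in these genes was 0.278% ± 0.214 in VE and 0.0199% ± 0.0101 in epiblast, higher in 10 of 10 embryos (exact sign-flip test p = 0.00195, the smallest that 10 embryos allow), and 0.302% and 0.0181% without P1 embryo 3.

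The route from uptake to degradation was uneven. Of 20 endocytic receptors and adaptors, 3 belong to the rule (the cubilin complex Cubn and Amn, and the adaptor Dab2), and 3 of 14 tested were higher, with none lower. These were Lrpap1, the chaperone of LDL-receptor family proteins (log2 fold change 2.81 ± 0.55, adjusted p = 0.00939), the minus-end motor Myo6 (3.86 ± 0.77, adjusted p = 0.0103) and the recycling factor Ehd1 (1.57 ± 0.42, adjusted p = 0.0489). Lrp2, megalin, the partner of cubilin, lay at 22.3 to 649 CPM (median 213.8) in VE and at 22.1 to 100.9 CPM (median 63.9) in epiblast. It was higher in 6 of 10 embryos and did not pass (log2 fold change 1.07 ± 0.59, adjusted p = 0.351). Clathrin light chain Clta differed at adjusted p = 0.0481 with a log2 fold change of 0.69, under the limit of 1.

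Lysosomal genes rose in number: 11 of 29 tested were higher, none was lower, and 26 of the 29 had a positive log2 fold change (median 1.49). The proteases led. Lgmn, legumain, lay at 111.3 to 1060 CPM (median 364) in VE and at 12.5 to 92.7 CPM (median 26.04) in epiblast, without overlap (log2 fold change 3.60 ± 0.37, adjusted p = 0.000188). Ctsh, cathepsin H, lay at 120.6 to 1037 CPM (median 417) against 7.19 to 100.3 CPM (median 24.4), again without overlap (log2 fold change 4.05 ± 0.40, adjusted p = 0.000147). Ctsl, cathepsin L, lay at 394 to 5167 CPM (median 1978) against 27.3 to 611 CPM (median 336) and rose by 2.72 ± 0.47, with P1 embryo 3 the 1 embryo in which it was lower. Ctsb, Ctsc and Ctsz rose by 2.56 ± 0.37, 3.11 ± 0.58 and 1.73 ± 0.44, the membrane proteins Lamp1 and Cd63 by 1.39 ± 0.24 and 2.51 ± 0.39, the cholesterol exporter Npc2 by 1.48 ± 0.18, and the proton pump subunits Atp6v0d1 and Atp6v1a by 1.94 ± 0.51 and 1.49 ± 0.28. Together the lysosomal genes took 0.940% ± 0.531 of VE counts and 0.257% ± 0.060 of epiblast counts (higher in 9 of 10 embryos, exact sign-flip test p = 0.00391). The shares were 1.01% and 0.255% without P1 embryo 3 (9 of 9, exact p = 0.00391) and 0.986% and 0.249% without P3 embryo 9 (8 of 9, exact p = 0.00781), and without both embryos 14 of 29 tested genes were higher.

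**Figure D3:**
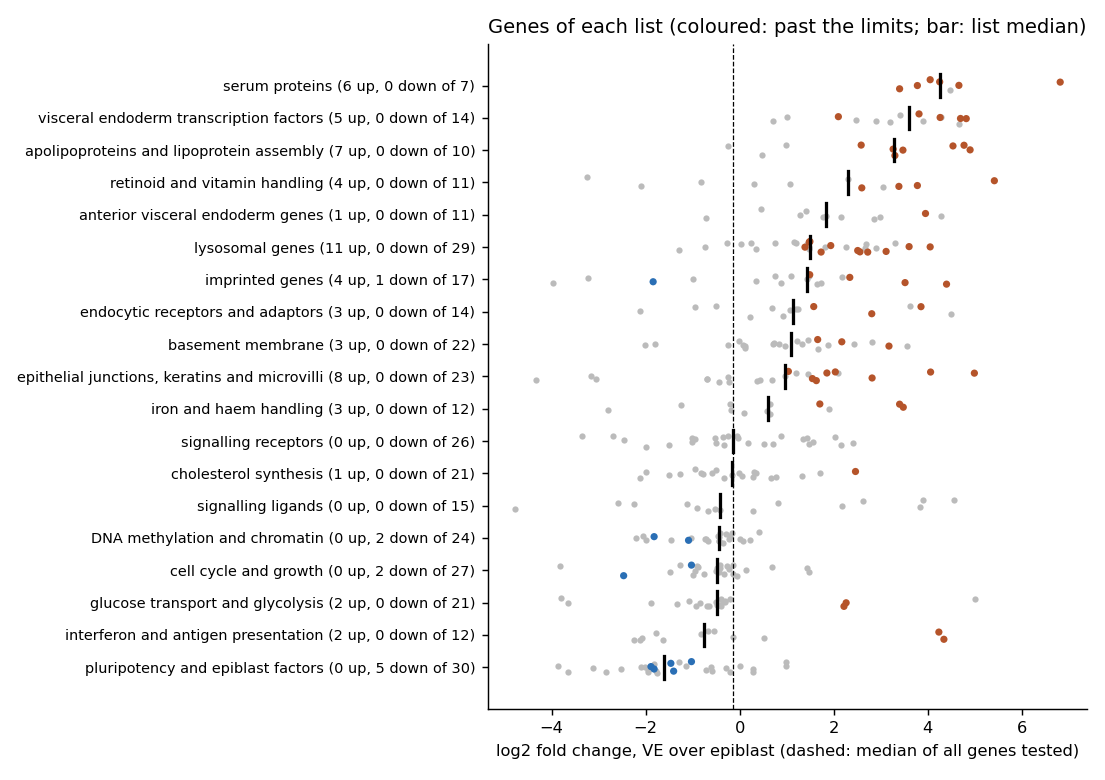
Each point is a tested gene at its log2 fold change of VE over epiblast on the x axis, by gene list, coloured where it passed the limits, with a bar at the list median and a dashed line at the median of all genes tested (−0.15). Serum proteins (median 4.25), VE transcription factors (3.61) and apolipoproteins (3.28) lie furthest to the right and pluripotency and epiblast factors (−1.61) furthest to the left.

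Of 21 listed transcription factors of the VE, 7 were under the filter, and 5 of 14 tested were higher, although all 14 had a positive log2 fold change. Gata4 (chr14:63198922-63271692, minus strand) lay at 0.71 to 265 CPM (median 105.05) in VE and at 0.38 to 17.1 CPM (median 3.06) in epiblast (log2 fold change 4.82 ± 0.97, adjusted p = 0.0104). It was higher in 9 of 10 embryos, P1 embryo 3 being the exception. The other genes that passed were Tfec (4.70 ± 1.22), Maf (4.26 ± 1.14), Foxq1 (3.81 ± 0.93) and Id1 (2.10 ± 0.52), Id1 being a target of BMP signalling. Hnf4a, the hepatocyte factor that the VE requires, lay at 4.96 to 182.8 CPM (median 47.9) in VE and at 0 to 35.1 CPM (median 3.31) in epiblast. It was higher in 10 of 10 embryos but missed the limit (log2 fold change 3.41 ± 1.18, adjusted p = 0.123). Foxa2 (adjusted p = 0.164) and Sox17 (adjusted p = 0.163) also missed it, with VE medians of 59.9 and 34.7 CPM and epiblast medians of 4.32 and 0.90 CPM. Without P1 embryo 3 and P3 embryo 9, 10 of 17 tested factors were higher, Foxa2 among them (5.03, adjusted p = 0.00951), while Hnf4a (adjusted p = 0.0546) and Sox17 (adjusted p = 0.112) still missed it. Without P1 embryo 3 alone 6 of 15 were higher, and without P3 embryo 9 alone 3 of 16 (Gata4, Gata6 and Maf). With VE cells at 10 CPM of T or more left out, 4 of 16 were higher (Gata4, Nr2f2, Foxq1 and Id1). Tfec was not called in any of these. Gata6 was under the filter with all 10 embryos, at 0 to 123.1 CPM (median 35.3) in VE and 0 to 6.94 CPM (median 0.41) in epiblast, and was tested without P1 embryo 3, where it passed (log2 fold change 5.88, adjusted p = 0.00741). Both embryos were singled out partly on low Gata4, Gata6 and Foxa2, so the calls without them select on the values tested.

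Genes of the anterior VE varied between embryos. Of 12 with a row, 11 were tested and only Lhx1 passed. Lhx1 lay at 11.99 to 1257 CPM (median 180.1) in VE and at 0 to 63.9 CPM (median 9.76) in epiblast (log2 fold change 3.95 ± 1.01, adjusted p = 0.0396). With VE cells at 10 CPM of T or more left out it did not pass (3.53, adjusted p = 0.180, 7 embryos). Cer1 and Hhex passed too without P1 embryo 3. Neither passed without P3 embryo 9, without both embryos, or with VE cells at 10 CPM of T or more left out. Cer1 (chr4:82881751-82885148, minus strand), a secreted antagonist of Nodal, BMP and Wnt, lay at 1.22 to 952 CPM (median 115.7) against 2.61 to 53.97 CPM (median 7.75). It was higher in 9 of 10 embryos and missed the limit (log2 fold change 2.99 ± 0.84, adjusted p = 0.0573), which it passed without P1 embryo 3 (3.37, adjusted p = 0.0318). Cer1 stood at 2.78 without P3 embryo 9 (adjusted p = 0.0927) and at 3.16 without both embryos (adjusted p = 0.0586). With VE cells at 10 CPM of T or more left out it stood at 3.13 (adjusted p = 0.117). Otx2, which the epiblast also expresses, lay at medians of 244.4 CPM in VE and 293 CPM in epiblast (log2 fold change −0.72 ± 0.47, adjusted p = 0.447). Lefty1 and the Wnt antagonist Dkk1 had VE medians of 21.03 and 24.6 CPM and epiblast medians of 10.7 and 14.5 CPM, with adjusted p = 0.925 and 0.515. Among single cells, 23 of the 48 VE cells had Cer1 at 10 CPM or more, as did 38 of the epiblast wells. Of those 23 VE cells, 22 also had Sfrp1, 21 Lhx1, 21 Otx2, 19 Dkk1, 15 Hhex and 12 Lefty1 at that level. Of the other 25 VE cells, 16 had Sfrp1, 16 Lhx1, 17 Otx2, 4 Dkk1, 2 Hhex and 1 Lefty1. The cells share embryos and no test was made of them.

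Cer1 cells were spread unevenly over embryos. They made up 8 of 10 VE cells in P3 embryo 8, 3 of 3 in P3 embryo 7, 4 of 8 in P2 embryo 5, and 2 of 3 in both P1 embryo 2 and P1 embryo 3. P3 embryo 9 had 1 of 4 and P2 embryo 6 had 1 of 5, and without a plate name E6.75 embryo 1 had 1 of 5, E6.75 embryo 2 had 1 of 4 and unplated embryo 1 had 0 of 3. Over the 7 embryos on named plates they were 21 of 36 VE cells, and over the 3 without a plate name 2 of 12. The embryos without a plate name include both embryos titled E6.75, so plate and titled stage cannot be told apart in this difference.

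**Figure D4:**
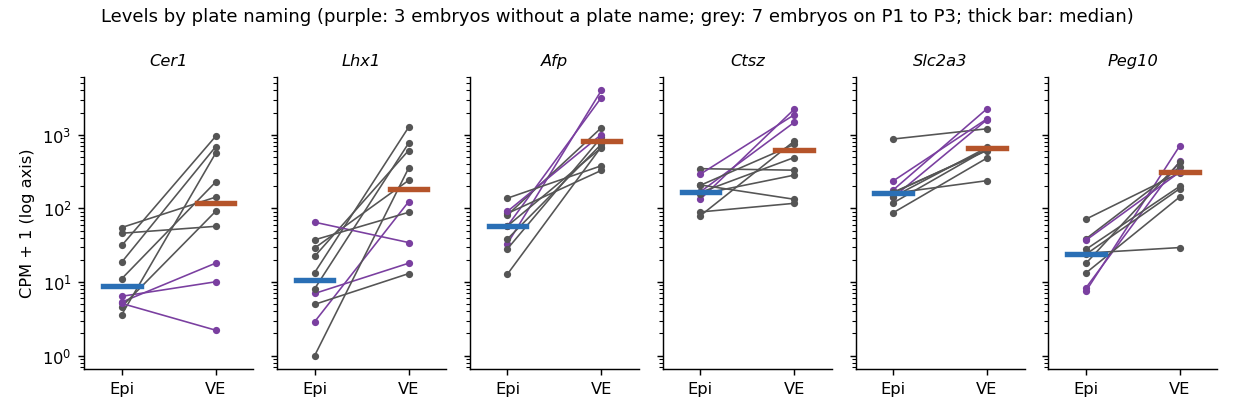
Lines join the epiblast (Epi) and VE sums of each embryo as CPM + 1 on a log axis for 6 genes, in purple for the 3 embryos without a plate name and in grey for the 7 on plates P1 to P3, with thick bars at the medians of all 10. The VE sums of the 3 embryos without a plate name lie at 1.22 to 17.04 CPM for Cer1, below all 7 others at 56.03 to 952 CPM, and at 1470.3 to 2218 CPM for Ctsz, above all others at 116.1 to 818 CPM.

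The class difference was compared between the 7 embryos with and the 3 without a plate name. No gene of 9139 had an adjusted p of at most 0.05 for the interaction in edgeR, and 2.002% had an unadjusted p under 0.05. The log2 fold change of Cer1 was 4.18 on named plates and 0.45 without a plate name (interaction p = 0.0161, adjusted p = 1). That of Ctsz was 1.02 and 3.29 (p = 0.00593, adjusted p = 1), that of the glucose transporter Slc2a3 was 1.73 and 3.34 (p = 0.00509, adjusted p = 1) and that of Afp 3.76 and 5.46 (p = 0.0955, adjusted p = 1). The directions were the same in both sets for these 4 genes, and none of the differences held after adjustment. On the 7 plated embryos alone, 40 genes were higher and 1 was lower.

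Epithelial and matrix genes also differed. Of 23 tested genes of junctions, keratins and microvilli, 8 were higher and none was lower. Krt8 lay at 42.6 to 1001 CPM (median 563) in VE and at 5.96 to 180.2 CPM (median 82.9) in epiblast (log2 fold change 2.82 ± 0.45, adjusted p = 0.00231). Its partner keratin Krt18, which has near-identical pseudogene copies, rose by 2.03 ± 0.51. The tight junction protein Cldn6 lay at 306 to 1248 CPM (median 528) against 62.7 to 362 CPM (median 214.4) and rose in 10 of 10 embryos (1.55 ± 0.28, adjusted p = 0.00525). The brush border genes Vil1 (4.99 ± 1.30), Pdzk1 (4.06 ± 0.99), Slc9a3r1 (1.63 ± 0.29), Podxl (1.86 ± 0.39) and Ezr (1.04 ± 0.26) rose as well. Cdh1 and Epcam, shared by both epithelia, had medians of 158.4 and 296 CPM in VE against 236.8 and 399.7 CPM in epiblast and did not pass (adjusted p = 0.174 and 0.256). Of 22 tested basement membrane genes, Col4a1 (3.17 ± 0.60), Nid2 (2.17 ± 0.53) and Sparc (1.66 ± 0.25) were higher. Sparc, which the parietal endoderm expresses strongly, lay at 121.99 to 776 CPM (median 258.1) in VE and at 33.3 to 201.5 CPM (median 95.3) in epiblast. Col4a2 had VE values above the epiblast value in 10 of 10 embryos and did not pass (2.82 ± 0.85, adjusted p = 0.0763).

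Nutrient handling genes followed. Of 11 tested genes of retinoid and vitamin handling, 4 were higher. Folr1, the folate receptor, lay at 51.1 to 592 CPM (median 359) in VE and at 0 to 65.2 CPM (median 8.76) in epiblast (log2 fold change 5.42 ± 0.98, adjusted p = 0.00556). Cyp26a1, which degrades retinoic acid, lay at 40.9 to 1002 CPM (median 379) against 0 to 115.1 CPM (median 32.1) and rose in 10 of 10 embryos (3.39 ± 0.56, adjusted p = 0.00313). Rbp4, described with the serum proteins, was also among those that rose. Crabp2, the retinoic acid carrier, had medians of 8.67 CPM in VE and 33.2 CPM in epiblast (adjusted p = 0.313). Of 12 tested iron and haem genes, the exporter ferroportin Slc40a1 (3.48 ± 0.80), Trf and the ferritin chain Fth1 (1.71 ± 0.25, a gene with many near-identical copies) rose. The transferrin receptor Tfrc had medians of 29.6 CPM in VE and 91.2 CPM in epiblast and did not pass (adjusted p = 0.294).

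Of 21 tested genes of glucose transport and glycolysis, 2 were higher, both transporters, against 2.36% of all genes tested. Slc2a3 lay at 236.9 to 2257 CPM (median 652) in VE and at 86.3 to 873 CPM (median 160.3) in epiblast (2.22 ± 0.30, adjusted p = 0.001, higher in 10 of 10 embryos), and the lactate carrier Slc16a1 rose by 2.26 ± 0.31. Slc2a1 lay at medians of 374 and 441 CPM (adjusted p = 0.656). No enzyme of the list passed both limits, although 18 of the 21 genes had a negative log2 fold change. Aldoa was lower in VE in 10 of 10 embryos at a log2 fold change of −0.84 ± 0.15 (adjusted p = 0.00500) and Ldha in 10 of 10 at −0.48 ± 0.12 (adjusted p = 0.0394), with medians of 1652 against 2643 CPM and 5017 against 7020 CPM. Both have near-identical copies in the genome. Of 21 tested genes of cholesterol synthesis 1 passed, near the share of all genes, the transfer protein Stard4 (2.45 ± 0.46, adjusted p = 0.00687), and Hmgcs1 had adjusted p = 0.949.

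None of 15 tested ligands and none of 26 tested receptors of the signalling lists was called, 14 ligands and 9 receptors being under the filter. Without P1 embryo 3 the ligand Bmp2 and the receptor Igf2r passed, and without P3 embryo 9 as well Fgf10 and Kitl also passed. The receptor Lpar1, described below, is outside these lists. Bmp2, a ligand of the VE, lay at 0 to 72.7 CPM (median 15.2) in VE and at 0 to 11.2 CPM (median 0.82) in epiblast, higher in 9 of 10 embryos (4.55 ± 1.44, adjusted p = 0.0912). Its log2 fold change without P1 embryo 3 was 5.10 (adjusted p = 0.0252). Fgf5, an epiblast ligand, lay at 48.1 to 779 CPM (median 150.4) in VE and at 92.97 to 218.6 CPM (median 146.3) in epiblast (0.29 ± 0.43, adjusted p = 0.778). Nodal and Fgf8 had medians of 6.98 and 37.8 CPM in VE and of 15.4 and 53.9 CPM in epiblast (adjusted p = 0.722 and 0.851). Pdgfra was under the filter, with a VE median of 15.9 CPM and an epiblast median of 0. Mixl1, a streak gene, had VE and epiblast medians of 128.8 and 8.32 CPM (adjusted p = 0.0829, and 0.204 with VE cells at 10 CPM of T or more left out), while Mesp1 was at a median of 0 in both.

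On the epiblast side, 5 of the 30 tested pluripotency and epiblast factors were lower in VE and none was higher (median log2 fold change −1.61, negative for 25 of the 30). Utf1 (chr7:139943789-139945112, plus strand) lay at 43.9 to 336 CPM (median 84.4) in VE and at 115.4 to 386 CPM (median 227.6) in epiblast (−1.40 ± 0.29, adjusted p = 0.0107). It was lower in 9 of 10 embryos, the other being P1 embryo 3 with 336 CPM in its VE-side cells. Zic5, a zinc finger factor, lay at 6.28 to 287 CPM (median 91.2) against 195.8 to 436 CPM (median 295) and was lower in 10 of 10 (−1.89 ± 0.39, adjusted p = 0.0112). L1td1 (−1.46 ± 0.27), Mycn (−1.03 ± 0.25) and Dnmt3a (−1.82 ± 0.29) made up the rest. Nanog lay at 0 to 40.9 CPM (median 15.1) in VE and at 3.55 to 240.5 CPM (median 66.8) in epiblast and did not pass (−3.65 ± 1.16, adjusted p = 0.0912), nor did Sox2 (medians 12.9 and 45.95 CPM, adjusted p = 0.206) or Pou3f1 (24.5 and 118.6 CPM, adjusted p = 0.0525). Without P1 embryo 3, 7 of the 30 were lower, Pou3f1 among them (−2.34, adjusted p = 0.0339), and without P3 embryo 9 as well 8 of 30 were. Without P3 embryo 9 alone 6 of 30 were lower, and with VE cells at 10 CPM of T or more left out 4 of 30 were. Mycn was in neither set. Sall4, with medians of 232.03 and 235.7 CPM, was higher in VE in 5 embryos and lower in 5.

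DNA methylation and chromatin genes gave 2 calls among 24 tested, both lower in VE. Dnmt3a (chr12:3806007-3914443, plus strand), a de novo methyltransferase, lay at 44.98 to 448 CPM (median 97.6) in VE and at 323 to 572 CPM (median 392) in epiblast (adjusted p = 0.00231). Only P1 embryo 3 went the other way. Its relative Dnmt3b belongs to the rule, with medians of 828.9 and 1945 CPM. Jarid2, a partner of Polycomb complex PRC2, was lower in 10 of 10 embryos (medians 134.3 and 207.6 CPM, −1.09 ± 0.28, adjusted p = 0.0421). It did not pass with VE cells at 10 CPM of T or more left out. The PRC2 core genes Ezh2 (219.3 and 248.2 CPM, adjusted p = 0.575) and Suz12 (143.8 and 88.3 CPM, adjusted p = 0.375) did not pass, and Tet1 had medians of 94.3 and 182.5 CPM (adjusted p = 0.353).

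Of 27 tested cell cycle and growth genes, Mycn and the G1 cyclin Ccnd1 (−2.47 ± 0.66, adjusted p = 0.0470) were lower and none was higher. Ccnd1 lay at 0.93 to 210.1 CPM (median 91.3) in VE and at 112.8 to 635 CPM (median 357) in epiblast. Ccnd2 had medians of 3.10 and 32.8 CPM (adjusted p = 0.115), and Ccnd3 84.3 and 83.6 CPM (adjusted p = 0.951). Leaving out P1 embryo 3, 4 of 27 were lower (Mcm2 and Pcna besides), and none of 27 passed with VE cells at 10 CPM of T or more left out. Only Ccnd1 passed without P3 embryo 9.

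Imprinted genes moved in both directions. Of 17 tested, 4 were higher in VE and 1 was lower. Peg10, a retrotransposon-derived gene, lay at 28.4 to 711 CPM (median 307) in VE and at 6.55 to 70.5 CPM (median 23.3) in epiblast (3.52 ± 0.53, adjusted p = 0.00184, higher in 10 of 10 embryos). Its neighbour Sgce rose by 4.40 ± 0.77, the non-coding RNA H19 by 2.34 ± 0.34 and Peg3 by 1.49 ± 0.29. Snrpn, a splicing protein gene whose annotated span overlaps others, lay at 23.95 to 823 CPM (median 172.4) in VE and at 355 to 709.9 CPM (median 577) in epiblast (−1.84 ± 0.43, adjusted p = 0.0257). It was higher in VE in 2 embryos. Of 12 tested genes listed under interferon and antigen presentation, the 2 that rose were Cd59a (4.34 ± 0.64) and Cd55 (4.24 ± 0.83), both inhibitors of complement on the cell surface.

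By size alone, among genes called, changed the same way in 10 of 10 embryos and at 50 CPM or more on average in the higher class, the 12 largest rises included Apob, Apoa4 and Afp. Slc16a9, a carrier of the monocarboxylate family, lay at 3.09 to 257.7 CPM (median 44.3) in VE and at 0 to 1.73 CPM (median 0.05) in epiblast without overlap (log2 fold change 7.72 ± 1.14, adjusted p = 0.00147). It reached 10 CPM in 25 of 48 VE cells and 1 of the epiblast wells. Folr1, the transcription factor Elf1 (4.69 ± 0.94), the ribonuclease Rnase4 (4.66 ± 0.86), the sialic acid enzyme Npl (4.53 ± 0.83), Gm10680 (4.48 ± 0.89), the epithelial mucin Muc13 (4.45 ± 0.94), Cd59a and the lysophosphatidic acid receptor Lpar1 (4.29 ± 0.60) complete the 12. Lpar1 had the narrowest VE range of them, at 80.9 to 153.2 CPM (median 125.8) against 0.94 to 32.1 CPM (median 5.68) in epiblast.

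The 12 largest falls were of other kinds. Cdca7l, a Myc-interacting gene, lay at 0 to 52.8 CPM (median 14.9) in VE and at 49.3 to 267 CPM (median 88.1) in epiblast (−3.11 ± 0.81, adjusted p = 0.0426). Myh10, non-muscle myosin IIB, lay at 3.30 to 45.5 CPM (median 12.7) against 38.7 to 168.7 CPM (mean 104.2) and fell by 2.81 ± 0.43 on the log2 scale (adjusted p = 0.00188). Crip2 (−3.04 ± 0.82), the condensin subunit Ncapd2 (−2.82 ± 0.68), Gm19553 (−2.74 ± 0.55), the ribosome biogenesis gene Wdr46 (−2.27 ± 0.44), B230312C02Rik (−2.18 ± 0.43), the mitochondrial cyclophilin Ppif (−2.07 ± 0.52), Zfp266 (−1.89 ± 0.43), Zic5, the silencing factor Tnrc6c (−1.86 ± 0.40) and Arid2, a subunit of the PBAF remodeller (−1.72 ± 0.28), follow.

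A dissected E5.5 embryo gave values for cells that the rule did not choose. In E5.5 embryo 7, 5 wells were labelled VE and 41 single epiblast wells came from the same embryo. All 5 lay on the VE side of the selection measure and none of the 41 did. The sums held 6668780 and 43117934 counts, with 1 sum for each class and therefore no test. Of the genes higher at E6.5 with more than 3 counts at E5.5, 94.4% were higher in the E5.5 VE sum and 12 genes were lower. Of the 85 lower genes, 83 were lower in it and 2 were higher. Among all 9102 tested genes with more than 3 counts the VE sum was higher for 3481 (38.2%).

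Levels differed between the stages for some genes. At E5.5 Apob lay at 2026 CPM in the VE sum and 0.14 CPM in the epiblast sum, Apom at 3306 and 0.32 CPM, Trf at 976 and 2.83 CPM and Cyp26a1 at 1581 and 0 CPM. Afp, by contrast, lay at 80.4 CPM in the E5.5 VE sum and at 0 in the epiblast sum. The lowest E6.5 VE sum was 327 CPM, that of P3 embryo 9, which its TMM factor of 0.56 raised. The E5.5 values have no such factors. Gata4, Gata6 and Sox17 were at 173.2, 46.03 and 115.3 CPM in the VE sum and at 0 in the epiblast sum. Lefty1, Dkk1 and Fgf8 lay at 835, 372 and 686 CPM in the VE sum against 6.73, 0.83 and 12.7 CPM in the epiblast sum. In epiblast, Pou5f1 lay at 1908 CPM and Utf1 at 398 CPM, against 0.15 and 66.3 CPM in VE. With 1 embryo dissected at E5.5, differences between the stages have no replicate check.

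**Figure D5:**
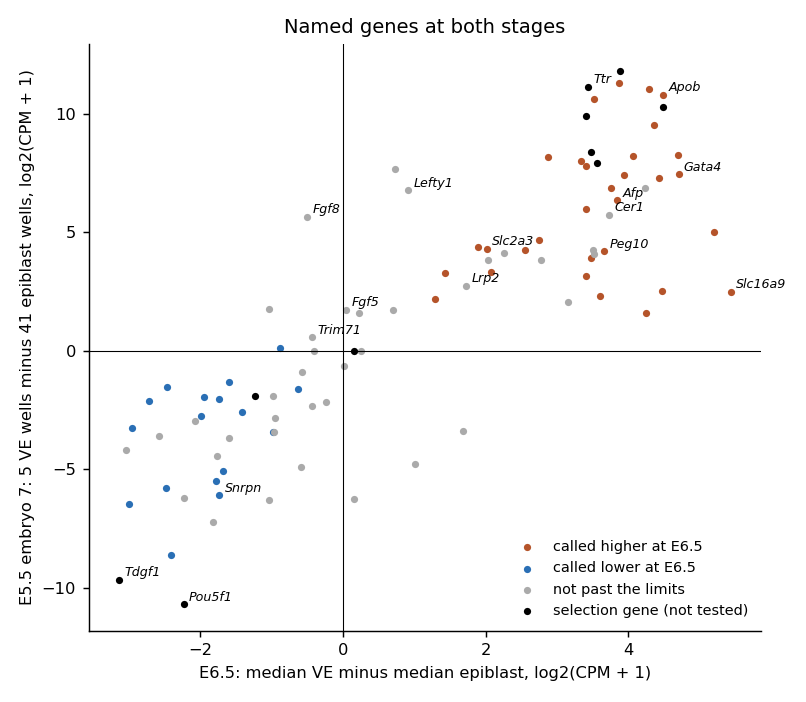
Named genes are placed by the difference between VE and epiblast in log2(CPM + 1), at E6.5 from the medians of 10 embryos (x axis) and in E5.5 embryo 7 from 5 VE and 41 epiblast wells (y axis), coloured by their E6.5 call, with selection genes in black. TMM factors were applied at E6.5 only. Genes called higher lie to the upper right and genes called lower to the lower left, except Mycn, which lies near 0 at E5.5, and of the genes not called Lefty1 and Fgf8 lie well above 0 at E5.5.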

How the data were processed

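Polyadenylated RNA of single cells was sequenced with Smart-seq2 chemistry. Per the submitters' processing notes the authors trimmed reads with Trim Galore (0.4.3) and aligned them to GRCm38 with HISAT2 (2.0.5), for both of which the study's methods name another version, and they deposited raw counts per gene for the cells that passed their quality control, and whether strand was used in counting is not given in the sources used here. Cells held 74054 to 3451994 counts. Counts were summed per embryo and class, since cells of an embryo are not replicates. The rule put 144 cells on the epiblast side, and 118 of these with 48 VE cells, 166 of 721, were compared. Sums were tested with edgeR 4.0.16 (TMM, filterByExpr, quasi-likelihood F test, embryo as a block, Benjamini-Hochberg adjustment over all genes tested), and a call needed a log2 fold change above 1 in size and an adjusted p no greater than 0.05, which gave 216 higher and 85 lower genes. Levels of the E6.5 sums are CPM with TMM factors, which were 0.56 for the VE sum of P3 embryo 9 and 0.92 to 1.17 for the other sums. Levels of the E5.5 sums are CPM without such factors. The 10 genes of the rule were given no test. VE and epiblast sums were paired because they came from the same embryo, and the correlation of their deviations from the class means was −0.04 to 0.28, highest with the own partner in 6 of 10 embryos. Measures per cell and shares of counts were compared by exact sign-flip permutation tests over embryos.

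On simulated counts for 8893 genes, 136 of 200 genes changed 8-fold were recovered, with 0 in the wrong direction and 2 other genes called. The genes named were those of functional lists and the 12 largest changes in each direction among genes called, changed the same way in every embryo and at 50 CPM or more in the higher class. Members and lists were chosen with earlier results of these data known. Alternatives covered DESeq2 1.42.0, other scaling, filters, cell and embryo choices and each embryo left out. Doublets were not called by software, and wells labelled double were kept and left out in an alternative. Promoters came from a RefSeq table of GRCm38.p6, which held 158 of the 216 higher and 60 of the 85 lower genes. Some genes of the lists are counted but not reported here by name.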

Additional observations from a re-analysis of the deposited data

Results flagged for a closer look

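In 90 checks of the 10 paired log2 differences (VE minus epiblast), 6 had an embryo that stood apart from the other 9 by Dixon's criterion, where chance gives about 1 in 20. P1 embryo 3 stood apart for Gata4, at −1.68, and for Apoe, at −0.28, and its VE-side cells went against the label for several genes. P3 embryo 9 stood apart for Dnmt3l, a cofactor of de novo methylation, at 8.05. P3 embryo 7 stood apart for Tet1, which oxidises methylcytosine, at −6.91. E6.75 embryo 1 stood apart for the lactate dehydrogenase gene Ldhb, at −4.23. P1 embryo 2 stood apart for Arid2, at −4.08, in the same direction as the other 9.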

How the results depend on the processing

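The test as reported called 2.36% of the genes tested higher and 0.93% lower. DESeq2 called 7.89% and 7.85% (721 and 717 genes), and a test against a log2 fold change of 1 called 0.70% and 0.0438% (64 and 4). No filter on low counts gave 0.951% lower, of more genes tested. At least 5 cells of each class gave 0.896% and 0.0697% (90 and 7), leaving out cells titled E6.75 gave 0.679% and 0.10% (61 and 9), and plates P1 to P3 alone gave 0.456% and 0.0114% (40 and 1). Equal cell numbers gave 0.455% lower, leaving out cells with marker means less than 2 apart gave 1.39% lower, and leaving out only such VE cells, chosen after seeing the data, gave 1.65% lower. Also chosen after seeing the data, leaving out P1 embryo 3 and P3 embryo 9 gave 3.86% and 1.79%, and leaving out VE cells at 10 CPM of T or more gave 0.349% lower. Without the replicate block that pairs classes by embryo, 3.14% were higher (287) and 0.547% lower (50). Leaving out 1 embryo at a time gave 1.48% to 3.62% higher and 0.325% to 1.49% lower. The difference in counts per cell was 227729 with embryos titled E6.5 without a plate merged into P1 (exact p = 0.156). The difference in genes per thinned cell was −70.4 in wells labelled single and −29.1 to 54.6 with 1 embryo left out. The causes were not tested.

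Of the 48 named genes called, none changed direction in the alternatives in which it was fitted, and Apob, Apom, Apoe, Afp, Lgmn, Krt8, Slc2a3, Peg10 and Cd59a passed in all 28. Ppif passed in 9, Mycn and Crip2 in 10, Jarid2 in 11, Vil1 and Cdca7l in 12, Ctsz and Ncapd2 in 14 and Lhx1 in 15. Of the named genes not called, 12 passed in DESeq2, and over all 28 Pou3f1 passed in 9, Cer1 in 8, Bmp2 and Nanog in 5, Foxa2 in 4 and Col4a2 in 3. Genes not called changed sign as follows, in log2 fold change. With at least 5 cells, Apoa2 was −1.28, Lefty1 −2.02, Fgf5 −0.55, Ccnd3 0.46 and Phlda2 0.020. Without cells titled E6.75, Apoa2 was −0.72, Pdgfa 0.39 and Dnmt3l 0.026. On plates P1 to P3, Apoa2 was −1.73, Pdgfa 0.088, Dnmt3l 0.46 and Ccnd3 0.026. Without the block, Fgf8 was 0.31, Pdgfa 0.16, Sox2 0.0075, Dnmt3l 3.48, Lama1 2.28 and Phlda2 0.85. Without cells less than 2 apart, Apoa2 was −0.087 and Ccnd3 0.17, and Lefty1 was −0.51 without such VE cells. With equal cell numbers, Lefty1 was −0.075 and Ccnd3 0.56. Lama1 was 0.27 in DESeq2 and 0.69 with at least 2 cells, where Hmgcs1 was −0.095, and Hmgcs1 was −0.032 with the merged embryos. Without P1 embryo 3 and P3 embryo 9, Lama1 was 0.064 and Ccnd3 0.0039. With 1 embryo left out, Lefty1 ran from −0.32 to 1.22, Lama1 from −0.73 to 0.63, Hmgcs1 from −0.071 to 0.20 and Ccnd3 from −0.26 to 0.13.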
